A study of Mus musculus with 12 samples.

Results

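Glycolysis, the pentose phosphate pathway and glycogen turnover were followed through 40 listed mouse genes in tongue tumours and normal tongue. The list held 10 muscle isoforms and 30 general isoforms, and each gene was represented by the probe of highest mean signal among the probes annotated to it. A probe was found for 34 of the 40 genes, of 16593 genes with a probe in all, and 31 of them passed the filter on dim probes described below. Gpi1, Eno1, Ldhb, G6pdx, Pgd and the muscle isoform Pfkfb1 were not analysed here. Slc16a1, Pgm2 and Gbe1 had a probe that was above background on 0 of 12 arrays, so no comparison was made for them.

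RNA from 12 tissue pieces of B6 mice aged 8 months was hybridised to Illumina single-colour bead arrays. The 7 tongue tumours came from mice exposed for 8 weeks to 4NQO, a water-soluble carcinogen that forms DNA adducts, at 200 µg/mL together with arecoline, an alkaloid of areca nut, at 500 µg/mL. The 5 normal tongues came from mice that received DMSO over the same time, and both groups then rested for 20 weeks. No tumour-free tongue of exposed mice was among the samples, so exposure and tumour cannot be told apart, and the labels do not say whether each piece came from a separate animal, so p-values measure only the spread between pieces. How much surrounding tongue a tumour piece held is not given in the sources used here. All pieces are whole tissue, in which fewer cells of a type and less RNA per cell cannot be told apart.

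Glycolysis splits glucose to pyruvate and lactate with a gain of ATP, the pentose phosphate pathway draws off glucose 6-phosphate to make NADPH and ribose, and glycogen stores glucose in a branched polymer. Several steps are served by sister genes. Skeletal muscle, which makes up the body of the tongue, uses its own forms of phosphofructokinase, phosphoglycerate mutase, enolase and glycogen phosphorylase, while epithelial and proliferating cells rely on the liver, platelet, brain or general forms.

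Promoters of 5 enzymes are shown because their genes moved in opposite directions in the tumours. RefSeq promoter windows on GRCm38.p6, from 250 bases before to 50 bases after a gene's start, were matched by symbol for 39 of the 40 genes, all but Slc2a4. Of the 3 muscle isoforms, Pgam2 is the muscle phosphoglycerate mutase (chr11:5803747-5804046, minus strand), Eno3 the muscle enolase (chr11:70656926-70657225, plus strand) and Pygm the muscle glycogen phosphorylase (chr19:6384158-6384457, plus strand). Capitals mark CAGCTG, an E-box of the kind that myogenic factors bind, and in Pgam2 also a match to the motif of the muscle factor MEF2, which is the capital run that begins at position -80 from the start.
Pgam2: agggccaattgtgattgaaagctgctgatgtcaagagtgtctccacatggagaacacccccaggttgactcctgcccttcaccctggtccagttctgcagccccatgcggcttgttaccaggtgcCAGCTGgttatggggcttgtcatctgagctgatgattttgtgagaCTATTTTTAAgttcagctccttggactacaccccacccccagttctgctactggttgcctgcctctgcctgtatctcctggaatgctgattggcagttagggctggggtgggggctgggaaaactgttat
Eno3: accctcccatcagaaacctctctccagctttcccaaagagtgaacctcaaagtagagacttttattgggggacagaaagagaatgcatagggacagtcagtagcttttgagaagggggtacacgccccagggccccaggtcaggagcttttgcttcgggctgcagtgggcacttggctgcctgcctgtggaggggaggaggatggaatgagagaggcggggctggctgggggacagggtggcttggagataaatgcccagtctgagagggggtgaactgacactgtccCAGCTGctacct
Pygm: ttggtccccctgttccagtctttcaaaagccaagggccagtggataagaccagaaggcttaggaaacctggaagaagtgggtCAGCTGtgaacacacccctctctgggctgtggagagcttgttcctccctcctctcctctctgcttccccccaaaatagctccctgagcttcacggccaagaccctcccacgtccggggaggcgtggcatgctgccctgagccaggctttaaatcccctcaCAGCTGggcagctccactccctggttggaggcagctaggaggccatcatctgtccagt
The general mutase Pgam1 (chr19:41911621-41911920, plus strand) and lactate dehydrogenase A, Ldha (its window at chr7:46845554-46845853, plus strand), are shown for comparison. Here capitals mark ACGTG or GCGTG on either strand, the core letters of the element that hypoxia-inducible factors bind.
Pgam1: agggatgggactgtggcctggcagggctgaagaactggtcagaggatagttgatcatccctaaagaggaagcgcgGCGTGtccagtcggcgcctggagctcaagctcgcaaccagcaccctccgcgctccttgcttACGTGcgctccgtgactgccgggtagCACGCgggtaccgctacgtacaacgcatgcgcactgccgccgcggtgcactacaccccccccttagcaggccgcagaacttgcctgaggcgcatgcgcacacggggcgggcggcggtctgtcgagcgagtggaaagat
Ldha: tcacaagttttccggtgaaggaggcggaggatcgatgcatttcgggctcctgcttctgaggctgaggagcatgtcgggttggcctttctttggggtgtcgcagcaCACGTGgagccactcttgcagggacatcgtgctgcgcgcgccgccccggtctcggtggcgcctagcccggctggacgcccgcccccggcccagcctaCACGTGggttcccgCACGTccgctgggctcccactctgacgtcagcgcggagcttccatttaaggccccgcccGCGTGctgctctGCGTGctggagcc

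CAGCTG was present in the windows of 6 of 8 muscle isoforms with a probe and a window (Pgam2, Eno3, Pygm, Gys1, Phka1 and Fbp2), of 4 of 25 general isoforms with a probe, and of 18.3% of all 27025 genes in the promoter table. The MEF2 motif was found in 1 of these 8 muscle isoforms, in 0 of 25 general isoforms and in 3.70% of all genes. ACGTG stood in 3 of 8 muscle isoforms and 18 of 25 general isoforms, against 21.8% of all genes. Among general isoforms, ACGTG was present in 6 of the 9 genes that rose in the tumours and in 6 of the 7 that fell. GCGTG stood in 4 of 8 muscle isoforms (Pfkm, Eno3, Pygm and Phka1) and 15 of 25 general isoforms, against 35.2% of all genes. It is not marked in the Eno3 and Pygm windows above. Among general isoforms, GCGTG was present in 8 of the 9 that rose and 3 of the 7 that fell. Letters were read on both strands, ACGTG on either strand overlaps itself within CACGTG, and TATAAA and GGGCGG were also searched, for 6 motifs in all. GGGCGG was present in 2 of 8 muscle isoforms and 21 of 25 general isoforms, against 38.2% of all genes. TATAAA was present in 0 of 8 and 2 of 25, against 15.7%. A gene was counted when any of its windows held the motif. A match describes these letters in this window and no more.

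Between 14745 and 15388 probes lay above background on each array, and precision is limited by how many arrays there were. Values below are log2 signals, and a change is the tumour mean minus the normal mean from a limma fit over all 15702 probes kept, called when the Benjamini-Hochberg adjusted p over these probes was under 0.05. Markers of skeletal muscle were lower in the tumours in 13 of 13 measured genes (median log2 change -3.67), and their mean signal was 8.38 to 12.41 in tumours, with tumour 2 highest and tumour 4 next at 11.06, against 13.43 to 13.80 in normals. Markers of basal squamous epithelium were higher in 7 of 8 genes and lower in 1, the basal keratin Krt14 (-0.30). Their mean was 12.57 to 13.23 in tumours and 10.95 to 11.40 in normals. Leukocyte markers were higher in 4 of 5 measured genes of 9 listed, with a mean of 10.61 to 11.82 in tumours and 7.56 to 8.64 in normals. S100a9 rose by 7.39 and S100a8 rose with it, and inflamed squamous epithelium also expresses both. The T-cell genes Cd3d (1.37) and Cd3g also rose, Lyz2 had a change of -0.42 (not called), and Ptprc and Itgam did not pass the filter. Fibroblast markers were higher in 1 and lower in 3 of 6 genes, and endothelial markers lower in 3 of 3 measured. Salivary gland markers were measured in 4 of 7 genes, with means of 9.80 on tumour 2 and 13.31 on normal 1 against 6.39 to 7.69 on the other arrays. The part of these cell types in the changes below was not tested. Of 10787 genes tested, 3507 were called higher (32.5%), 2544 lower (23.6%) and 6051 in either direction (56.1%), and groups did not overlap for 37.9%.

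Muscle isoforms fell and general isoforms split. Of the 9 muscle isoforms tested, 8 fell, 0 rose and 1 was not called, where 23.6% of all genes tested fell. Their median log2 change was -3.89, against 0.07 for all genes, and the groups did not overlap for 8 of 9, where this held for 37.9% of all genes. Pygm was above background in 3 of 7 tumours, and Phka1 and Phkg1 in 2 of 7. These genes passed the filter only through the normals, where they were high, so their part in these counts and in the median was set toward a fall. Of the 22 general isoforms tested, 9 rose, 7 fell and 6 were not called, with a median of 0.31, and groups did not overlap for 14. Among all genes tested 32.5% rose and 23.6% fell.

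The balance of general isoforms depended on the scaling. Cyclic loess gave 7 higher and 7 lower, and centring on 7 reference genes gave 4 higher and 11 lower. Those 7 genes were themselves higher in the tumours, and under that centring the median change of all genes was -0.54. The share of called genes that were higher was 58.0% with quantile normalisation, 46.3% under cyclic loess and 9.60% under that centring. The 4 genes Pfkl, Pfkp, Pgam1 and Tkt were called higher under each of the 23 alternatives tried.

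**Figure D1:**
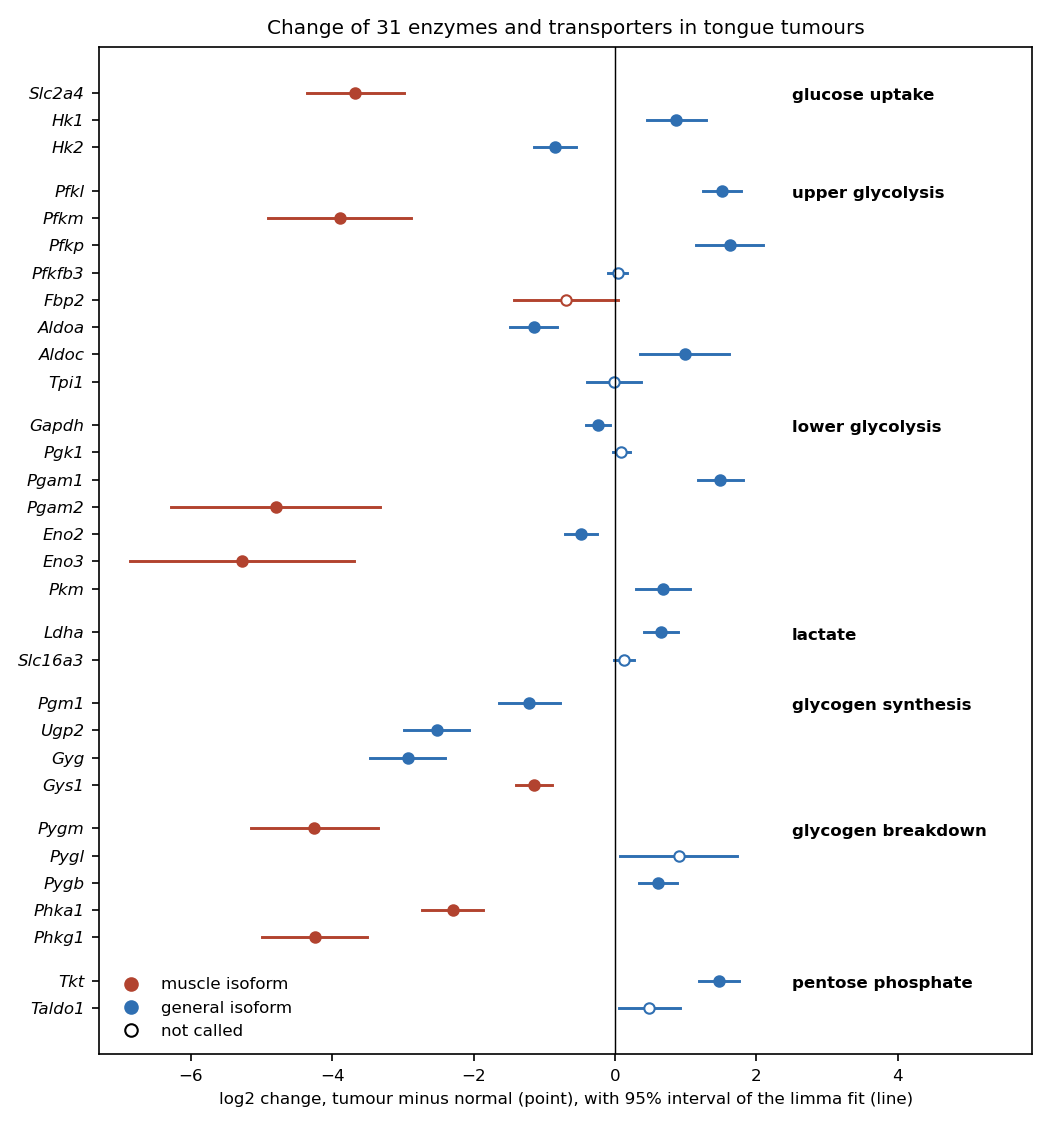
Each point is the log2 change (tumour minus normal) of a gene and each line its 95% interval from the limma fit, grouped by step of the pathway; red marks muscle isoforms, blue general isoforms and open points genes that were not called. Red points lie to the left of 0, the lowest being Eno3 at -5.28, while blue points lie on both sides, from Gyg at -2.94 to Pfkp at 1.62.

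Glucose enters muscle through Slc2a4 (GLUT4), the insulin-responsive transporter. Its signal lay between 6.70 and 8.87 with a median of 7.10 in the 7 tumours, against 11.14, 10.85, 11.12, 11.24 and 11.05 in normals 1 to 5. Every tumour lay below every normal, and the gene was 12.8-fold lower (log2 change -3.67, SE 0.32, adjusted p = 9.87e-07). Hexokinases trap glucose as glucose 6-phosphate, and the measured pair moved in opposite directions. Hk1, the broadly expressed form, lay between 8.40 and 9.69 with a median of 8.66 in the 7 tumours, against 7.73, 7.94, 7.98, 8.12 and 7.98 in normals 1 to 5. It rose without overlap (log2 change 0.87, SE 0.19, adjusted p = 0.00191), with the highest value on tumour 6, but its change was 0.29 and not called under centring on reference genes. Hk2, the main hexokinase of insulin-responsive muscle and often raised in cancers, fell by 0.85 on the log2 scale (SE 0.14, adjusted p = 0.000179), with 12.01 to 12.81 across tumours and 13.15 to 13.31 across normals.

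Phosphofructokinase commits sugar to glycolysis and has muscle, liver and platelet subunits. Pfkm, the muscle subunit, lay between 9.79 and 12.95 with a median of 10.42 in the 7 tumours, against 14.78, 14.49, 14.64, 14.62 and 14.64 in normals 1 to 5. It fell 14.9-fold (log2 change -3.89, SE 0.47, adjusted p = 1.48e-05), with tumour 2 nearest to the normals. Pfkl, the liver subunit, lay between 11.56 and 12.31 with a median of 11.79 in the 7 tumours, against 10.11, 10.43, 10.40, 10.45 and 10.45 in normals 1 to 5. All 7 tumours lay above all normals, and it rose 2.85-fold (log2 change 1.51, SE 0.12, adjusted p = 6.20e-07). Pfkp, the platelet subunit, lay between 9.71 and 11.23 with a median of 10.70 in the 7 tumours, against 8.43, 9.32, 9.13, 9.01 and 8.99 in normals 1 to 5. It rose 3.07-fold without overlap (log2 change 1.62, SE 0.22, adjusted p = 4.49e-05). A second Pfkl probe, much dimmer, had a change of 0.08 and was not called, whereas the other tested probes of Pfkm (-4.39 and -3.30) and Pfkp (1.26) were called in the same direction as those used.

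Fbp2, the muscle fructose bisphosphatase, which runs the opposing step, was the muscle isoform not called (log2 change -0.69, SE 0.34, adjusted p = 0.101). Its values were 9.89, 10.12, 10.23, 10.51, 10.89, 10.68 and 8.39 in tumours 1 to 7, against 10.81, 10.65, 10.67, 10.99 and 10.86 in normals 1 to 5. Tumours 5 and 6 had 10.89 and 10.68, within the range of the normals, while the muscle marker mean on these arrays was 8.38 and 8.71, and tumour 7 alone was far below. Fbp2 was called lower with array weights (-0.64, adjusted p = 0.0372), under centring on reference genes (-1.23) and when replicate number was a block (-0.47).

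Aldolases split fructose 1,6-bisphosphate. Aldoa, the form of muscle and many other tissues, fell 2.22-fold (log2 change -1.15, SE 0.15, adjusted p = 3.18e-05), with 12.95 to 13.84 in tumours and 14.19 to 14.74 in normals. Aldoc, best known from brain, lay between 8.25 and 10.21 with a median of 9.25 in the 7 tumours, against 8.25, 8.04, 8.25, 7.95 and 8.01 in normals 1 to 5. It rose 1.98-fold (log2 change 0.99, SE 0.29, adjusted p = 0.0113), although tumours 1 and 2, at 8.25 and 8.36, lay barely above the highest normal and tumour 4 reached 10.21. Its call was lost under centring on reference genes (0.43, adjusted p = 0.177) and when replicate number was a block (0.88, adjusted p = 0.0662). Tpi1, triose phosphate isomerase, had a change of -0.02 with a 95% interval of -0.40 to 0.37 and was not called. Tumour 6 had its lowest value, 13.17, and tumour 7 its highest, 14.48. Of its other probes, a dimmer one was called higher (0.46, adjusted p = 0.0115). Pfkfb3, which makes the activator of phosphofructokinase, was measured at most 0.41 above the threshold of background and had a change of 0.04 (not called).

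In the lower steps of glycolysis the muscle isoforms fell and the general mutase rose. Eno3, the muscle enolase, lay between 8.11 and 12.77 with a median of 8.75 in the 7 tumours, against 14.88, 14.83, 14.87, 14.76 and 14.78 in normals 1 to 5. It fell 38.9-fold and was above background in all 7 tumours (log2 change -5.28, SE 0.73, adjusted p = 4.99e-05). Tumours 2 and 4, at 12.77 and 11.27, kept the highest signals, and tumours 5 to 7 lay at 8.11 to 8.19. Pgam2, the muscle mutase, lay between 7.09 and 11.62 with a median of 8.07 in the 7 tumours, against 13.65, 13.25, 13.47, 13.43 and 13.40 in normals 1 to 5. It fell 27.9-fold without overlap (log2 change -4.80, SE 0.68, adjusted p = 6.19e-05). Pgam1, the mutase of most other tissues, lay between 10.36 and 11.37 with a median of 10.89 in the 7 tumours, against 9.15, 9.55, 9.25, 9.63 and 9.35 in normals 1 to 5. All tumours lay above all normals (2.81-fold, log2 change 1.49, SE 0.15, adjusted p = 2.55e-06), with tumour 2 lowest and tumour 7 highest among the tumours.

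Pkm, the pyruvate kinase of muscle and most proliferating tissues, rose 1.60-fold (log2 change 0.68, SE 0.17, adjusted p = 0.00488). The groups overlapped, since tumour 1 had 13.40 and normal 2 had 13.57. Its probe is annotated to the gene, so the splice forms of muscle and of proliferating cells were not told apart. Gapdh, often used as a loading control, fell by 0.24 on the log2 scale (SE 0.08, adjusted p = 0.0155) with overlap, and its second probe had a change of -0.30. The Gapdh call was lost in the deposited values as they stand (-0.24, adjusted p = 0.0502). Eno2, the neuronal enolase, fell by 0.48 (SE 0.11, adjusted p = 0.00173) and was above background in 5 of 7 tumours and all normals. The Pgk1 probe lay at most 0.39 above the threshold of background on any array, so its change of 0.09 (not called) says little about phosphoglycerate kinase.

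Lactate is made by lactate dehydrogenase A and exported by monocarboxylate transporters. Ldha lay between 14.02 and 14.64 with a median of 14.25 in the 7 tumours, against 13.84, 13.54, 13.62, 13.52 and 13.59 in normals 1 to 5. Every tumour exceeded every normal and the rise was 1.57-fold (log2 change 0.65, SE 0.11, adjusted p = 0.000269). The calls of Ldha and Pkm depended on the scaling, with changes of 0.29 (adjusted p = 0.0776) and 0.34 (adjusted p = 0.129) under cyclic loess and -0.09 and -0.04 under centring on reference genes. The exporter Slc16a3 (MCT4) lay between 6.81 and 7.09 with a median of 6.93 in the 7 tumours, against 6.74, 6.84, 6.84, 6.85 and 6.76 in normals 1 to 5, and its change of 0.13 was not called. The lactate carrier Slc16a1 (MCT1), at 6.18 to 6.37 in tumours and 6.24 to 6.34 in normals, was not above background.

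Of 6 listed genes of glycogen synthesis, 4 were tested, since Pgm2 and Gbe1 were not above background. These 4 fell without overlap, where 23.6% of all genes tested fell and groups did not overlap for 37.9%. Gyg, glycogenin, the protein primer of glycogen, lay between 6.70 and 8.30 with a median of 7.13 in the 7 tumours, against 10.33, 10.04, 10.21, 10.23 and 10.21 in normals 1 to 5. It fell 7.65-fold (log2 change -2.94, SE 0.25, adjusted p = 7.28e-07), and its second probe changed by -3.10. Ugp2, which makes UDP-glucose, fell 5.74-fold (log2 change -2.52, SE 0.21, adjusted p = 7.51e-07), with 8.50 to 9.90 in tumours and 11.37 to 11.86 in normals. Pgm1, the phosphoglucomutase that links glucose 6-phosphate to glycogen, fell 2.32-fold (log2 change -1.21, SE 0.20, adjusted p = 0.000184). Gys1, the glycogen synthase of muscle and most tissues outside liver, fell 2.21-fold (log2 change -1.14, SE 0.12, adjusted p = 3.46e-06), and its values had an SD of 0.16 (n = 7), at 7.01 to 7.38 over the tumours. Gyg, Ugp2 and Pgm1 stand among the general isoforms, as do Hk2 and Aldoa, though skeletal muscle uses all 5 of these genes, and these 5 with Gapdh and Eno2 made up the 7 general isoforms that fell.

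Glycogen phosphorylase frees glucose 1-phosphate and is switched on by phosphorylase kinase. Pygm, the muscle phosphorylase, lay between 6.28 and 9.01 with a median of 6.38 in the 7 tumours, against 11.30, 11.12, 11.22, 11.26 and 11.11 in normals 1 to 5. It fell 19.1-fold (log2 change -4.25, SE 0.42, adjusted p = 2.58e-06) and was above background in 3 of 7 tumours, so no rank is given to this fold. Phkg1, the catalytic subunit of the muscle kinase, lay between 6.04 and 8.22 with a median of 6.12 in the 7 tumours, against 10.90, 10.75, 10.95, 10.67 and 10.90 in normals 1 to 5. It fell 19.0-fold (log2 change -4.25, SE 0.34, adjusted p = 5.36e-07), and Phka1, the muscle regulatory subunit, fell 4.92-fold (log2 change -2.30, SE 0.20, adjusted p = 9.40e-07). Each was above background in 2 of 7 tumours, so these folds too are measured against signals mostly at background. A second Phka1 probe had a smaller fall of 0.66 on the log2 scale.

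The liver and brain phosphorylases were not lower in tumours. Pygb, the brain form, lay between 8.61 and 9.24 with a median of 8.78 in the 7 tumours, against 8.60, 8.31, 8.07, 8.12 and 8.01 in normals 1 to 5. It rose 1.52-fold, with the lowest tumour and the highest normal almost level (log2 change 0.60, SE 0.12, adjusted p = 0.00116), and its change was 0.02 under centring on reference genes. Pygl, the liver form, had 8.44, 8.66, 9.31, 10.13, 8.29, 7.91 and 10.35 in tumours 1 to 7, against 8.02, 8.21, 8.22, 8.11 and 8.00 in normals 1 to 5. Tumours 4 and 7 stood 2.02 and 2.24 above the normal mean and tumour 6 below all of them, and the mean change was not called (log2 change 0.90, SE 0.38, adjusted p = 0.0616). It was called with array weights, when replicate number was a block, without tumour 5 and without tumour 6 (1.02 and 1.08 for these 2 leave-outs). A second, dimmer Pygl probe had a change of 0.37 and was not called.

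The non-oxidative arm of the pentose phosphate pathway was represented among the listed genes by 2 of its enzymes. Tkt, transketolase, lay between 11.86 and 12.50 with a median of 12.31 in the 7 tumours, against 10.43, 10.87, 10.72, 10.97 and 10.72 in normals 1 to 5. It rose 2.76-fold without overlap (log2 change 1.47, SE 0.13, adjusted p = 1.29e-06), with tumour 6 highest. Of its other probes, a much dimmer one had a smaller rise (0.43, adjusted p = 0.000828) and the remaining one did not pass the filter. Taldo1, transaldolase, lay between 12.19 and 13.67 with a median of 12.71 in the 7 tumours, against 12.46, 12.19, 12.32, 12.27 and 12.22 in normals 1 to 5. Tumour 6 was again highest, at 13.67, and tumour 4 lowest, at 12.19 just under the lowest normal, and the change was not called (log2 change 0.49, SE 0.20, adjusted p = 0.0555). Taldo1 was called higher with array weights (0.48), and without tumour 2, tumour 4 or tumour 6 (0.53, 0.58 and 0.34). It was not called under cyclic loess (0.20, adjusted p = 0.442), and centring on reference genes turned its direction without a call (-0.17, adjusted p = 0.404).

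Sister genes were set against each other within each array, since a difference between the probes of an array cancels any shift common to that array. The sign of such a difference has no meaning across probes, but its change between groups does, and means are given with their SD over 7 tumours and 5 normals. Of 8 pairs listed, 5 had both genes measured. Pgam1 minus Pgam2 was -1.26 to 4.28 in tumours, against -4.50 to -3.70 in normals, with means of 2.24 ± 1.90 and -4.06 ± 0.32 and a change of 6.29. For Pfkl minus Pfkm the difference was -1.23 to 2.39 in tumours, against -4.67 to -4.05 in normals, with means of 1.14 ± 1.20 and -4.26 ± 0.24 and a change of 5.41. Pfkp minus Pfkm gave -2.24 to 1.30 in tumours, against -6.35 to -5.17 in normals, with means of -0.14 ± 1.12 and -5.66 ± 0.43 and a change of 5.51. Pygl minus Pygm had values of -0.35 to 4.07 in tumours, against -3.28 to -2.91 in normals, with means of 2.07 ± 1.37 and -3.09 ± 0.14 and a change of 5.16. Pygb minus Pygm showed 0.24 to 2.51 in tumours, against -3.16 to -2.70 in normals, with means of 1.88 ± 0.83 and -2.98 ± 0.21 and a change of 4.86. Pygm was above background in 3 of 7 tumours, so the sizes of both changes against Pygm rest in part on the background level. In all 5 pairs every tumour lay above every normal, and the two-sided exact permutation test over every assignment of the arrays to groups of 7 and 5 gave p = 0.00126 for each pair, the smallest it allows, and an adjusted p = 0.00126 after Benjamini-Hochberg adjustment over the 5 pairs. The pairs share Pfkm and Pygm and are not independent. They were also chosen with earlier results of these data known, so these p-values describe the separation of the groups and add no independent support. In each pair the fall of the muscle gene was larger than the rise of its sister gene, as with -3.89 for Pfkm beside 1.51 for Pfkl.

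**Figure D2:**
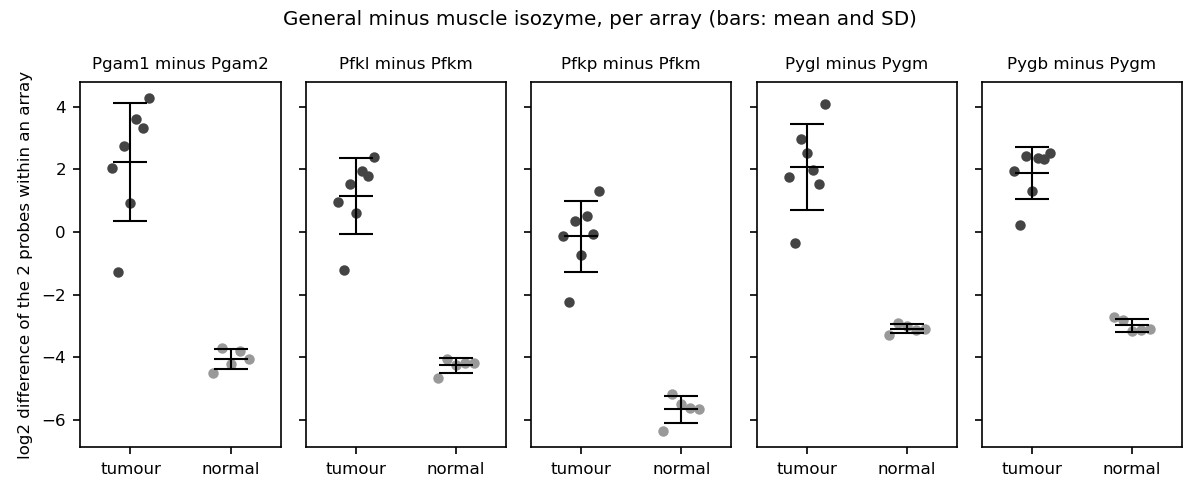
Each point is an array and the vertical axis is the log2 signal of the general isozyme minus that of the muscle isozyme, with mean and SD as bars, for tumours on the left and normals on the right of each panel. Tumour points lie above normal points in all 5 panels, and the lowest tumour point of each panel (-1.26 for Pgam1 minus Pgam2) is tumour 2.

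Tumours differed from each other more in muscle isoforms than in general isoforms. The SD over the 7 tumours was 0.16 to 1.81 (median 0.84) for the 9 muscle isoforms and 0.08 to 0.94 (median 0.32) for the 22 general isoforms, while over the 5 normals the medians were 0.14 for both classes. Tumour 2 held the highest value of the tumours in 8 of 9 muscle isoforms and tumour 4 the next highest in 6 of 9. Median deviations of the muscle isoforms from the normal mean were -4.08, -1.82, -4.21, -3.35, -4.77, -4.79 and -4.71 in tumours 1 to 7. For the general isoforms the same medians lay between 0.04 and 0.36, with tumour 7 highest in 13 of 22 genes and tumours 1 and 6 lowest in 6 each. Tumour 7 had the highest Pfkl, Pfkp, Pgam1, Pkm and Ldha of all tumours. It was also the highest tumour for Hk2, Aldoa, Gapdh and Pgm1, which were called lower, so there it lay nearest to the normals. Of the 9 muscle isoforms it was lowest of the tumours in 3 and second highest in 2, Slc2a4 and Gys1. Tumour 6 had the highest Hk1, Tkt and Taldo1 and the lowest Pfkl, Pfkp and Tpi1. The muscle markers were likewise highest in tumours 2 and 4, and the part of remaining muscle in these values was not tested. Without normal 1 and tumour 2 together, which also carried salivary gland markers, 8 muscle isoforms fell, and 9 general isoforms rose and 7 fell.

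**Figure D3:**
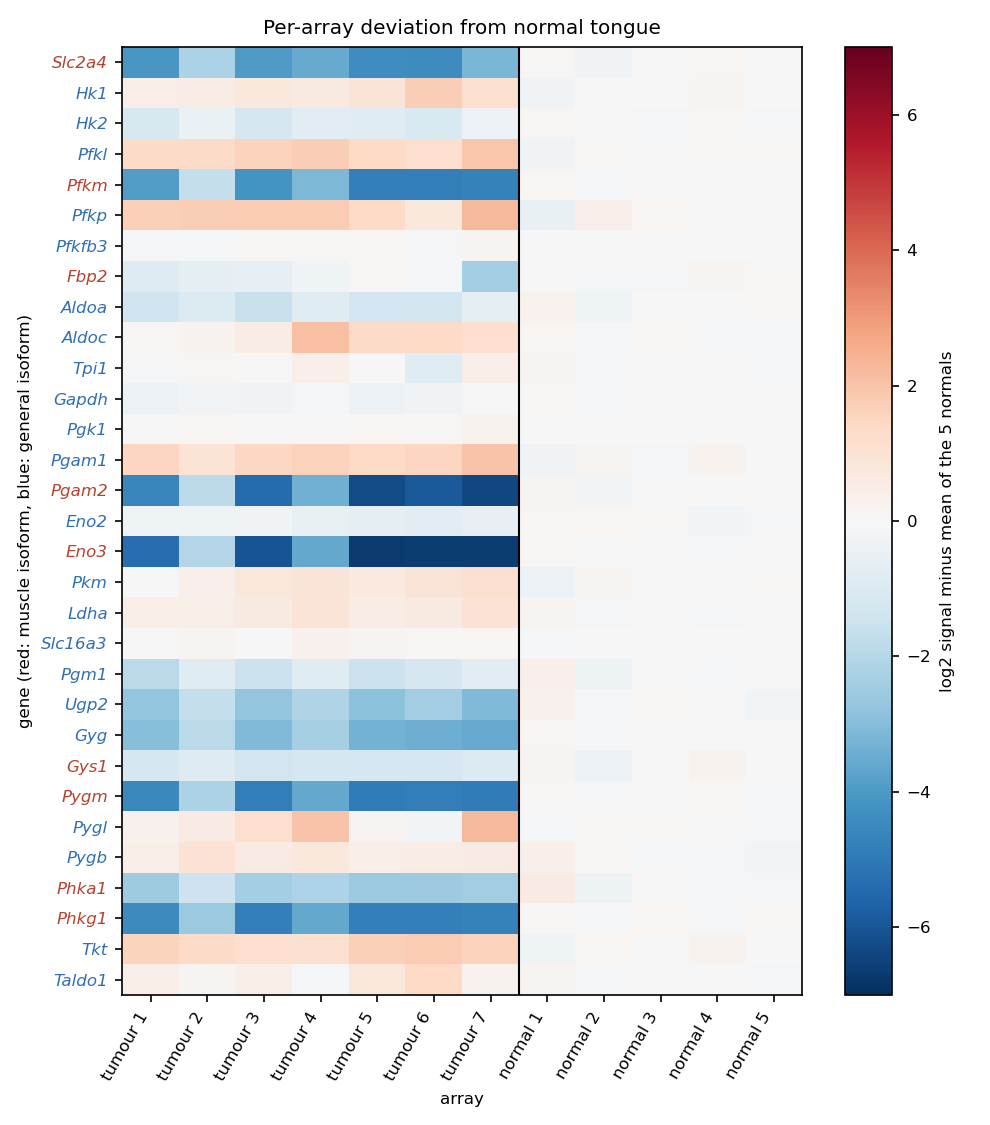
Colours give the log2 signal of each gene on each array minus the mean of the 5 normals, tumours in the left block and normals in the right, with gene names in red for muscle isoforms and blue for general isoforms. Muscle isoforms other than Fbp2 are blue in every tumour and palest in tumour 2, and Pfkl, Pfkp, Pgam1 and Tkt are red in every tumour.

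**Figure D4:**
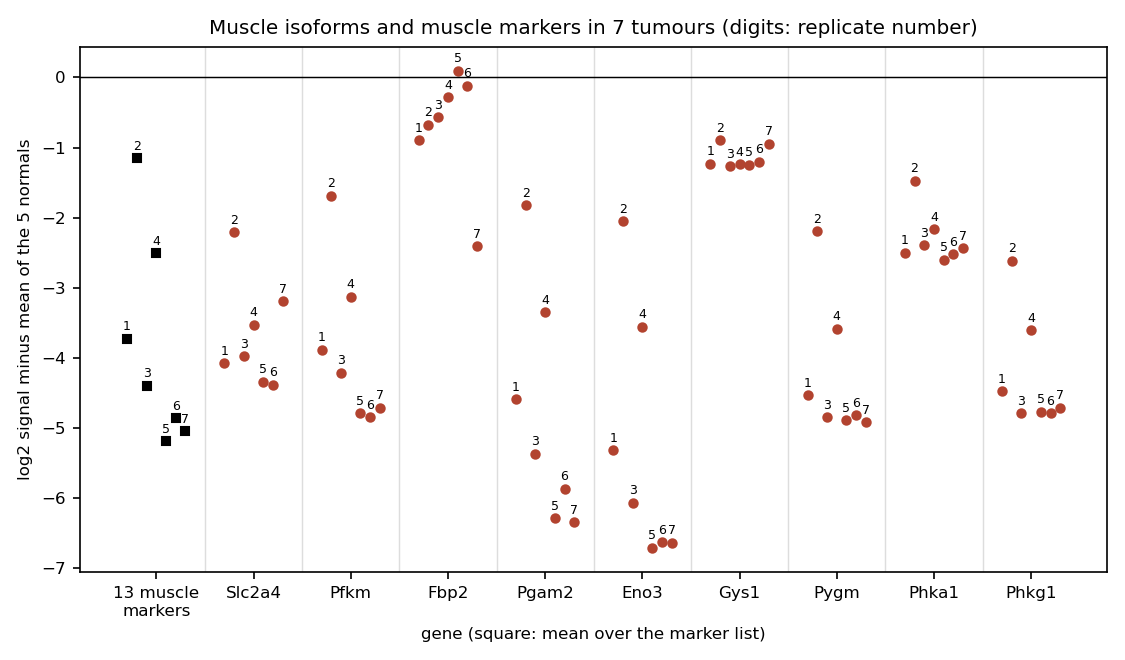
Points give, for each of 7 tumours (digits), the log2 signal minus the mean of the 5 normals, for the mean of 13 muscle marker genes (black squares) and for 9 muscle isoforms (red). Tumours 2 and 4 lie highest for the markers and for most isoforms, Gys1 stays between -1.27 and -0.89, and Fbp2 lies between -0.90 and 0.09 except in tumour 7 at -2.41.

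**Figure D5:**
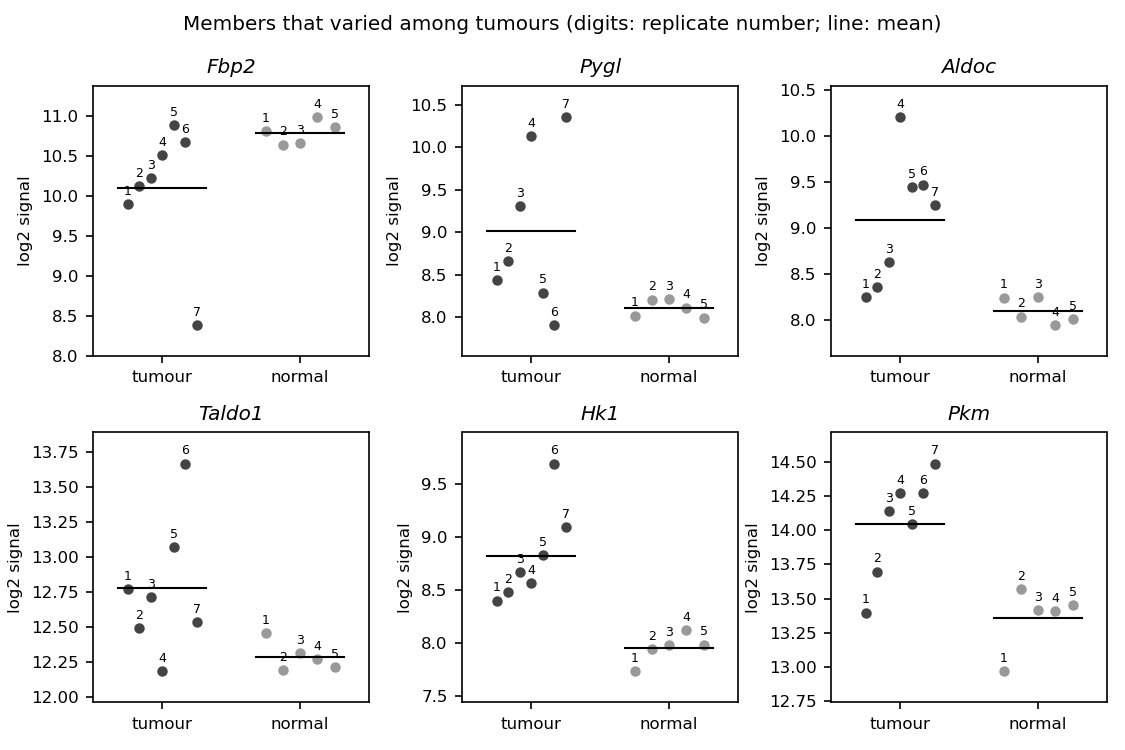
Log2 signals of 6 genes are plotted by group, with the replicate number beside each point and the group mean as a line; each panel has its own vertical scale. Tumour 7 lies lowest for Fbp2 and highest for Pygl and Pkm, tumour 4 highest for Aldoc, and tumour 6 highest for Taldo1 and Hk1.

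Other genes of sugar metabolism were read from a separate list of 62, of which 52 had a probe and 39 were tested. Of these, 5 rose (32.5% of all genes tested did), 19 fell (23.6%) and 15 were not called, with a median change of -0.38. Slc2a1 (GLUT1), a broadly expressed glucose transporter, had the largest rise (log2 change 3.07, SE 0.15, adjusted p = 2.23e-08). Pdk1, a kinase that restrains pyruvate dehydrogenase and is known as a hypoxia target, rose (0.81), as did Pdk3 (0.41), the mitochondrial glycerol phosphate dehydrogenase Gpd2 (0.61) and the ADP-dependent glucokinase Adpgk (0.57). The largest falls were in Pdk4 (log2 change -3.50, SE 0.46, adjusted p = 2.96e-05) and Pdk2 (log2 change -2.79, SE 0.16, adjusted p = 5.63e-08), other kinases of the same family, in Ppp1r3c (-3.36), which targets a phosphatase to glycogen, and in Pdp1 (-2.04), the phosphatase that reactivates pyruvate dehydrogenase. Gfpt2, of hexosamine synthesis, fell as well (-1.79), and Ldhd, the D-lactate dehydrogenase, was also called lower. Under centring on reference genes 1 of the 39 rose and 31 fell. Hk3, Rpia and Pgls, of glucose phosphorylation and the pentose phosphate pathway, had changes of 0.42, 0.10 and 0.11 and were not called.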

How the data were processed

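Per the labels' protocols, total RNA was extracted with TRIzol and biotin-labelled cRNA was hybridised to bead arrays. The authors' deposited values are log2 signals, with every array at a median of 6.56 and unequal quartiles. BeadStudio and Partek 6.6 are named per the submitters' processing notes, with no role stated. A second deposited table, with signals and detection p-values in 24 per-sample columns, was left out because none of the column names matches a label.

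The log2 values were turned into linear ones, background-corrected by normexp (offset 50), quantile normalised and expressed in log2. Background was the mode of an array's deposited values plus 1.64 SD of the side below the mode, and a probe was kept when above it on at least 5 arrays (15702 of 25697, 61.1%). Of the probes, 23978 carried 1 gene symbol and 1719 none, and 23962 matched a RefSeq gene ID (GRCm38.p6). The group comparison used two-sided moderated tests of limma 3.58.1 (lmFit, then eBayes; R 4.3.3), tested on simulated data. The simulation set changes in a small part of already normalised probes, so it cannot speak to calls that depend on the scaling. Plots come from Python 3.11.15 with matplotlib 3.10.9.

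The genes, lists and pairs were chosen with earlier results of these data known. All listed genes are named. For tested sister genes of the pairs and the 6 largest called rises and falls by fitted change, every normal array is given with the lowest, median and highest tumour. Same-numbered tumours and normals correlated at -0.37 to 0.08 in their deviations from the group means. These values gave no sign of pairing by replicate number, but they cannot exclude it. Pairs with Eno1 or Ldhb, or with Slc16a1, which did not pass the filter, were not computed. Alternatives covered scaling, background correction, filter, probe choice, array weights, the replicate number as a block and arrays left out. A block for the slide was not run, as no slide is given in the sources used here.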

Additional observations from a re-analysis of the deposited data

Results flagged for a closer look

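Dixon's test was applied to each group of 31 genes and 5 pair differences, 72 groups in all, and 4 values stood apart. Chance gives about 1 in 20 groups, so the count found is near what chance alone gives. In tumours, Fbp2 was 8.39 on tumour 7, with the next lowest tumour at 9.89, and Phka1 was 7.33 on tumour 2, with the next highest tumour at 6.63. In normals, Pfkl was 10.11 and Pkm 12.97 on normal 1, with the next lowest normals at 10.40 and 13.41. Normal 1 also had a salivary gland marker mean of 13.31, against 7.03 to 7.69 on the other normals, and tumour 2 the highest muscle marker mean of the tumours, 12.41. The part of these cell types in the values was not tested.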

How the results depend on the processing

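The 23 alternatives gave 713 values for the 31 genes, of which 681 kept direction and call, 7 lost the call, 12 gained one and 13 turned direction. A value that turned is counted only as turned, also where its call was lost or gained. Under centring on reference genes the values that turned were Pfkfb3 (-0.60), Pgk1 (-0.54), Slc16a3 (-0.50), Taldo1 (-0.17), Pkm (-0.036) and Ldha (-0.093), and under centring on the 75th percentile Pfkfb3 (-0.021). Pkm and Ldha also lost their calls under centring on reference genes. Pfkfb3, Pgk1 and Slc16a3 were called lower under centring on reference genes (adjusted p = 4.42e-05, 0.000114 and 0.000372). Tpi1 kept its direction there and was also called lower (-0.78, adjusted p = 0.00266). Tpi1, with a reported change of -0.02, turned with the mean over probes (0.14), array weights (0.037), the replicate number as a block (0.054), without normal 1 and tumour 2 (0.016), without tumour 6 (0.12) and without normal 1 (0.034), and was called in none of these; with 1 array left out it lay between -0.097 and 0.12. Centring on reference genes also gave 4 general isoforms higher and 11 lower with a median of -0.34, and 1 other pathway gene higher and 31 lower with a median of -0.97. The median of the other pathway genes was -0.023 with no filter and -0.17 without normal 1 and tumour 2, and -0.45 to -0.14 with 1 array left out; the genes that pass the filter differ between these choices. With 1 array left out, 8 muscle isoforms were lower each time (median -4.27 to -3.74), 9 to 11 general isoforms higher and 7 lower. With the replicate number as a block, for which tumours 6 and 7 have no partner, 9 muscle isoforms fell, and 9 general isoforms rose and 7 fell. The 5 pair differences stayed between 4.66 and 6.89 over the 21 alternatives in which they were computed, with adjusted p up to 0.00476. Signal near background limits Pgk1, Pfkfb3, Slc16a3 and Eno2 throughout, and Pygm, Phka1 and Phkg1 in most tumours.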
